A study of Mus musculus with 81 samples.

Results

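The blood of the 5 tumor-bearing mice given the lower dose of mRBC-OVA-4-1BBL-IL-12, 2.5e8 cells, was followed from day 0 to day 7 through its endogenous TCRβ repertoire, in 10 of the 81 libraries of the series. Both libraries of a mouse were matched by the mouse number in the labels, and every in-frame (productive) rearrangement was kept except those coding the OT-1 CDR3, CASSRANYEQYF. The animals were Pep Boy mice (B6.SJL-Ptprc<a> Pepc<b>/BoyJ), which carry the CD45.1 allele, with subcutaneous tumors of EG7.OVA, an OVA-expressing derivative of the T-cell lymphoma EL4. All of them received 2e6 EG7.OVA cells and, at a mean tumor volume near 175 mm3, 1e6 naïve OT-1 T cells, whose transgenic receptor recognizes an OVA peptide on MHC I. mRBC-OVA-4-1BBL-IL-12 are mouse red blood cells carrying that peptide-MHC complex, the costimulatory ligand 4-1BBL and the cytokine IL-12, and they were injected on days 0 and 3. The day 0 bleed came minutes behind the OT-1 cells and preceded the red blood cells. For comparison, mRBC-CTRL mice (4 with both days, 1e9 control red blood cells) and mice at the higher dose of 1e9 mRBC-OVA-4-1BBL-IL-12 (4 with both days) carried the same tumor and the same OT-1 transfer. The mice were female, their age is not given in the sources used here, and endogenous means only that a rearrangement does not code the OT-1 CDR3.

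The β chain of a T-cell receptor is assembled in the thymus from a V, a D and a J segment, with untemplated N bases added at both joints, and the junction codes the CDR3 loop that contacts the peptide. A rearrangement therefore marks a T cell and its descendants. In naïve blood nearly every T cell has a different rearrangement, whereas T cells that meet their antigen divide and make 1 rearrangement common. Clonality, 1 minus Shannon entropy divided by its maximum, is 0 when all rearrangements are equally frequent and approaches 1 when a single clone dominates.

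The libraries held 7417, 18519, 9788, 2683 and 9821 endogenous templates on day 0 in mice 1 to 5, and 3668, 4900, 2483, 2939 and 2830 on day 7, so day 7 was shallower in every mouse but mouse 4. OT-1 made up 17.0 to 28.3% of productive templates on day 0 and 3.12 to 7.70% on day 7, and it was removed from the denominator because its fall raises every other share. No endogenous rearrangement lay within 2 bases of the most abundant OT-1 rearrangement in these 10 libraries. The tumor line's own rearrangement, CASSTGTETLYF, was left out of the tumor values, and of the 10 blood libraries it appeared in the day 7 blood of mouse 3, with 1 template. All results below are shares of the endogenous repertoire, in which a clone that gained cells and a repertoire that lost other cells cannot be told apart.

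The clones that led each day 7 library, the second clone of mice 2 and 4, and the largest clone that fell are shown by their 87-base reads from the deposited files, 5′ to 3′, with the CDR3 part in capitals. Each read stops before the codon of the last CDR3 residue.
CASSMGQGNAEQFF, mouse 1 (TCRBV19-01, TCRBJ02-01): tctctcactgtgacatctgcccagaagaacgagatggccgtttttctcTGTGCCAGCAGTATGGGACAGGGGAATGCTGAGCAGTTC
Mouse 2 leader, CDR3 ending in GTGGDEQYF (TCRBV19-01, TCRBJ02-07): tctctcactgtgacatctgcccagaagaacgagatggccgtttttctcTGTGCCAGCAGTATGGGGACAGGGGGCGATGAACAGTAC
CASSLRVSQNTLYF, mouse 2 (TCRBV14-01, TCRBJ02-04): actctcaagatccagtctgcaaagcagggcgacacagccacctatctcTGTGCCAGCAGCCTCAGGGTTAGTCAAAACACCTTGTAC
15-residue clone of mouse 3 (TCRBV29-01, TCRBJ01-03): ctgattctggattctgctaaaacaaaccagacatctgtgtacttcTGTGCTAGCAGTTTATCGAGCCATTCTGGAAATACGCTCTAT
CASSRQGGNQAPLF, mouse 4 (TCRBV17-01, TCRBJ01-05): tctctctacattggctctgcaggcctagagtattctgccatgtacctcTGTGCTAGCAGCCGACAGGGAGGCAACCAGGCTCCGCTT
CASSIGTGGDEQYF, mouse 4 (TCRBV19-01, TCRBJ02-07): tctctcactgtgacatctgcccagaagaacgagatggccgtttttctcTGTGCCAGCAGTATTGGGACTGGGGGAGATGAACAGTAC
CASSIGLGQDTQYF, mouse 5 (TCRBV19-01, TCRBJ02-05): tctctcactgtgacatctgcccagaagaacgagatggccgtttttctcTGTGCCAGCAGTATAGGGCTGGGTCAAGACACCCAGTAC
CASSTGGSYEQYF, mouse 1, lower on day 7 (TCRBV19-01, TCRBJ02-07): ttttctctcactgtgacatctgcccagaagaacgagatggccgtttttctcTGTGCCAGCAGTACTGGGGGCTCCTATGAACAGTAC

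The endogenous repertoire of the blood narrowed in all 5 mice. At 2483 templates per library, the depth of the shallowest one, clonality on day 0 was 0.00583, 0.00249, 0.00354, 0.00877 and 0.00318 in mice 1 to 5. On day 7 it was 0.0444, 0.0788, 0.0480, 0.0722 and 0.0209. The groups of values did not overlap, and mice 2 and 4 were highest on day 7. Mean clonality went from 0.00476 ± 0.00257 to 0.0529 ± 0.0233 (SD, n = 5), a change of 0.0481 ± 0.0227 that was upward in 5 of 5 mice (exact sign-flip test, 2-sided, p = 0.0625, adjusted p = 0.0938 over 6 measures). With 5 pairs no p below 0.0625 can be reached, so the within-mouse changes are given by size and direction. With OT-1 kept, the changes in clonality (-0.0817) and in the chance of sharing described next (-4.46 percentage points) turned the other way.

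Fewer different receptors were seen at the same depth. Distinct rearrangements per 2483 templates numbered 2200, 2369, 2298, 1972 and 2319 on day 0 and 1710, 1686, 1604, 1488 and 1682 on day 7. Every day 7 value was below every day 0 value, and the mean fell by 597 ± 103 rearrangements (SD, n = 5). The fall was smaller with OT-1 kept (-249) and with 1 to 3 templates counted as 1 (-364). The 10 largest clones together held 1.53, 1.15, 1.08, 1.24 and 1.05% of templates on day 0 and 10.5, 17.0, 11.2, 14.6 and 5.26% on day 7, a mean gain of 10.5 ± 4.44 percentage points. The chance that 2 templates drawn from a library share a rearrangement, which needs no common depth, went from 0.00906 ± 0.00577% to 0.434 ± 0.359%. All 3 measures moved the same way in 5 of 5 mice, each at the smallest p (exact sign-flip test, p = 0.0625).

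CDR3 length and N bases were compared next. Mean CDR3 length was 41.4 bases on day 0 and 41.5 on day 7, a difference of 0.056 ± 0.098 bases (SD, n = 5, exact sign-flip test, p = 0.312). N bases per rearrangement averaged 3.35 on day 0 and 3.40 on day 7, a difference of 0.051 ± 0.076 (exact sign-flip test, p = 0.25). Both differences were within the spread between mice. With each rearrangement counted once, CDR3 length rose by 0.110 bases, in 5 of 5 mice (exact sign-flip test, p = 0.0625), and without mouse 1 the difference per template was 0.018 bases. Without mouse 5 the difference in N bases was 0.027.

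In mRBC-CTRL mice, at the same depth, the corresponding changes were smaller. Clonality there went from 0.00682 ± 0.00223 to 0.0126 ± 0.00397 (SD, n = 4), with changes of 0.00432, 0.00193, 0.00449 and 0.0122 in mice 2 to 5. The smallest change at 2.5e8, 0.0177 in mouse 5, exceeded the largest in mRBC-CTRL mice. The mean changes differed by 0.0424 (exact permutation test over the mice, 2-sided, p = 0.0159, adjusted p = 0.0476 over 12 comparisons of both other groups). Distinct rearrangements changed by 26.1 ± 164 in mRBC-CTRL mice, and the difference between the groups was -624 (exact permutation test, p = 0.00794, adjusted p = 0.0476). Mean library depth fell from 9646 to 3364 endogenous templates at 2.5e8 but rose from 4966 to 6953 in mRBC-CTRL mice. With 1 to 3 templates counted as 1, at 1960 templates, distinct rearrangements changed by -85.2 ± 31.1 in mRBC-CTRL mice. The difference between the groups was then -277 (exact permutation test, p = 0.0159). At that setting the differences in clonality (0.0547) and in the 10 largest clones (10.7 points) were larger. For the 10 largest clones, the gain of 2.40 ± 1.11 percentage points in mRBC-CTRL mice was 8.09 points smaller (exact permutation test, p = 0.0159, adjusted p = 0.0476). The chance that templates share a rearrangement, CDR3 length and N bases gave adjusted p = 0.0635, 0.294 and 0.460 in the same exact permutation tests. Without any single mRBC-CTRL mouse the clonality difference stayed between 0.0411 and 0.0445, at p = 0.0536 in the exact permutation test.

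**Figure D1:**
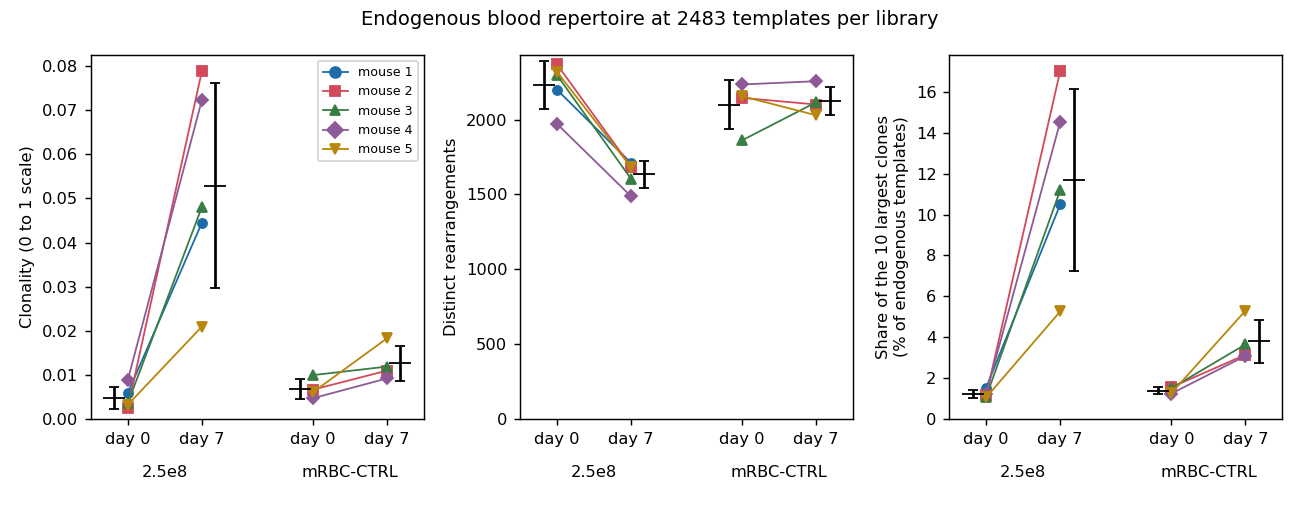
Clonality, distinct rearrangements and the summed share of the 10 largest clones (vertical axes) in day 0 and day 7 blood at 2483 endogenous templates per library, with each line 1 mouse and black bars mean ± SD (n = 5 at 2.5e8, n = 4 in mRBC-CTRL). The 5 mice at 2.5e8 rise steeply in clonality to between 0.0209 and 0.0788 and fall to between 1488 and 1710 distinct rearrangements, and the mRBC-CTRL lines stay flatter.

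The comparison with the higher dose used the same 5 mice at 482 templates, the depth of the shallowest endogenous library at 1e9, where OT-1 made up 63.0 ± 13.3% of productive day 7 templates (SD, n = 4). At that depth distinct rearrangements fell by 62.9 ± 17.4 at 2.5e8 and fell by 114 ± 48.2 at 1e9, a difference of 50.9 (exact permutation test, p = 0.0159, adjusted p = 0.0476). Clonality rose by 0.0306 ± 0.0186 at 2.5e8 and by 0.0575 ± 0.0210 at 1e9, which did not pass the test (difference -0.0269, exact permutation test, p = 0.0873, adjusted p = 0.131). For the 10 largest clones the gains were 9.00 ± 4.42 and 15.8 ± 2.89 percentage points (difference -6.76, exact permutation test, adjusted p = 0.0635).

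Single clones were then followed within each mouse. A clone is a nucleotide rearrangement, and it was tested where both libraries of a mouse together held at least 5 of its templates, with Fisher's exact test against all other endogenous templates and an adjusted p of 0.05. Of 196 clones tested, 120 (61.2%) were higher on day 7 and 3 (1.53%) were lower. The counts higher were 32, 32, 23, 14 and 19 in mice 1 to 5, among 49, 67, 30, 21 and 29 tested. Of the tested clones, 20, 46, 14, 3 and 14 in mice 1 to 5 had been found on day 0. Most day 0 clones held 1 to 3 templates, and a clone absent on day 0 was tested through its day 7 count alone. The fraction called among tested clones therefore partly reflects the minimum of 5 templates. Such a test compares 2 libraries of 1 mouse and includes no variation between bleeds.

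Together the clones called higher held 0.0809, 0.238, 0.194, 0.112 and 0.163% of day 0 templates and 14.2, 19.9, 14.5, 15.3 and 7.03% of day 7 templates, a mean of 0.157 ± 0.0627% against 14.2 ± 4.62% (SD, n = 5). Of the 120, 27 had been found on day 0 and 93 had not. Their median was 8 templates on day 7, and 15 of them reached 1% of the library, which no clone did on day 0. No CDR3 was called higher in more than 1 mouse, and the 120 clones carried 119 different CDR3s. The largest endogenous clone of each library held 0.0817 to 0.337% on day 0 and 0.883 to 9.05% on day 7.

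The same calls in mRBC-CTRL mice gave 34 clones higher (32.1% of 106 tested) and 7 lower (6.6%). Per mouse there were 24 ± 7.97 higher clones at 2.5e8 (SD, n = 5) and 8.5 ± 2.08 in mRBC-CTRL (SD, n = 4), a difference of 15.5 (exact permutation test, 2-sided, p = 0.0159, adjusted p = 0.0408 over 12 comparisons). The lowest count at 2.5e8, 14, was above the highest in mRBC-CTRL, 11. These clones held 3.39 ± 1.31% of day 7 templates in mRBC-CTRL mice, 10.8 percentage points less than at 2.5e8 (p = 0.0159 by the exact permutation test, adjusted p = 0.0408). Drawn to 2483 templates in every library, the counts were 13 ± 4.18 and 5 ± 3.16 (difference 8, exact permutation test, p = 0.0238, adjusted p = 0.0408) and the shares differed by 9.97 points. At 1e9 there were 27 ± 19.1 higher clones, and the difference of -3 was within the spread between mice (exact permutation test, p = 0.754). Their share of day 7 templates was larger at 1e9, 23.7 ± 4.15%, than at 2.5e8 (difference -9.47 points, p = 0.0159 by the exact permutation test, adjusted p = 0.0408). At an equal 482 templates the differences from 1e9 were -4.25 clones and -10.5 points (exact permutation test, p = 0.0238 for each, adjusted p = 0.0408).

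Non-productive rearrangements, which code no receptor but are carried along by a dividing cell, were tested in the same way. Of 48, 31 (64.6%) were higher on day 7, and 24 of these were found in the tumor of the same mouse. In mRBC-CTRL mice, 15 were higher on day 7. From mouse 2 to mouse 5 these were 3, 4, 4 and 4 of 7, 6, 8 and 6 tested. Of them, 3, 4, 3 and 4 were found in the tumor of the same mouse. Neither the calls nor their presence in the tumor was therefore limited to the lower dose.

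**Figure D2:**
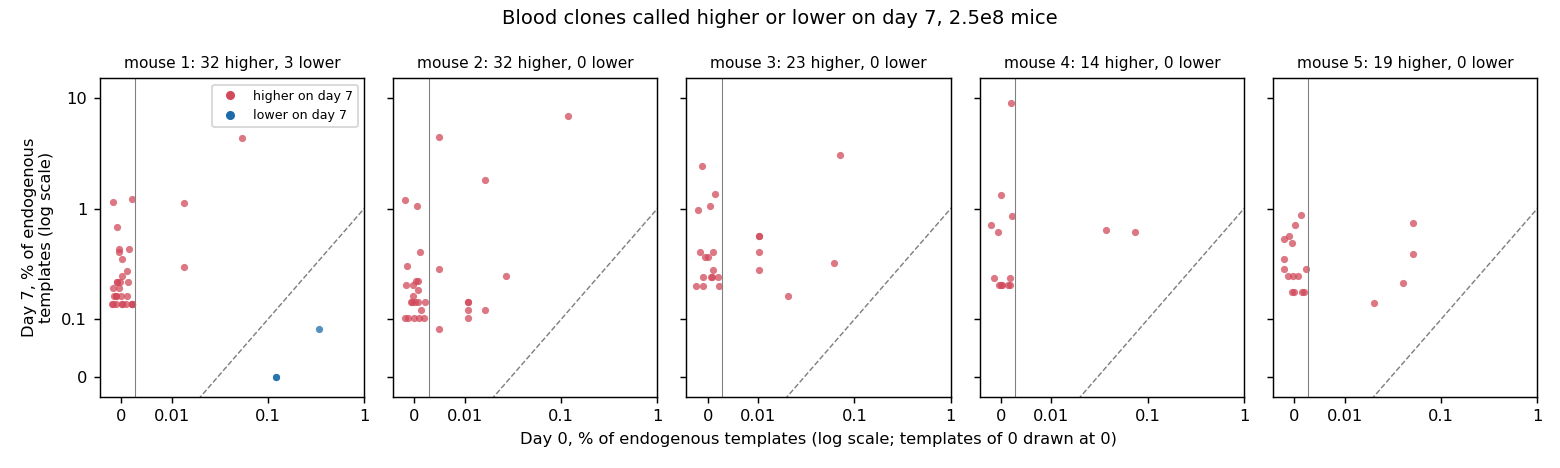
Share of endogenous templates on day 0 (horizontal axis, log scale) and day 7 (vertical axis, log scale) for each blood clone called higher (red) or lower (blue), 1 panel per mouse, with clones of 0 templates drawn at the tick marked 0 and spread sideways for legibility, and the dashed line marking equal shares. Most of the 120 higher clones sit left of the grey line, at 0 templates on day 0, and the 3 lower clones are all in mouse 1, 2 of them drawn on the same spot.

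Mouse 4 had the largest single clone. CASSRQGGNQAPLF (TCRBV17-01, TCRBJ01-05) was at 0 of 2683 templates on day 0, which allows a share of up to 0.112%, and at 266 of 2939 on day 7, 9.05% (95% Wilson interval 8.07 to 10.1%). That is at least 80.9-fold higher against a floor of 3 templates (Fisher's exact test, adjusted p = 7.64e-77). Its second clone, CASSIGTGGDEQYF (TCRBV19-01, TCRBJ02-07), went from 0 to 39 templates, 1.33% and at least 11.9-fold.

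In mouse 2 the leading clone was already present before dosing. This 14-residue clone (TCRBV19-01, TCRBJ02-07), whose CDR3 ends in GTGGDEQYF, had 22 templates on day 0, 0.119%, and 336 on day 7, 6.86% (interval 6.18 to 7.60%), a 57.7-fold rise (95% interval 37.5 to 93.4, Fisher's exact test, adjusted p = 1.78e-198). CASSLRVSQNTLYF (TCRBV14-01, TCRBJ02-04) went from 1 to 219 templates, 4.47% on day 7. Its ratio of 828 has an interval of 147 to 32839, since it rests on a single day 0 template. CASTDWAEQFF (TCRBV29-01, TCRBJ02-01) rose from 3 to 89 templates. A clone with the same ending on TCRBV17-01 and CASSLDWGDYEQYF (TCRBV16-01, TCRBJ02-07) were at 0 on day 0 and at 59 and 52 templates on day 7, at least 74.3-fold and 65.5-fold higher. Mouse 2 thus had 5 clones above 1%, from 5 different V segments.

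Mouse 1 was led by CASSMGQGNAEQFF (TCRBV19-01, TCRBJ02-01), with 4 templates on day 0 and 158 on day 7, 4.31% (interval 3.70 to 5.01%) and 79.9-fold higher (95% interval 30.6 to 297, Fisher's exact test, adjusted p = 3.75e-69). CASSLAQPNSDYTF (TCRBV03-01, TCRBJ01-02) went from 0 to 45 templates and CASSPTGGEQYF (TCRBV13-03, TCRBJ02-07) from 0 to 42, at least 30.3-fold and 28.3-fold. A 15-residue clone of TCRBV31-01 and TCRBJ02-02 rose from 1 to 41 templates. In mouse 3 the 15-residue clone of TCRBV29-01 and TCRBJ01-03 rose from 7 to 76 templates, 3.06% and 42.8-fold (95% interval 19.8 to 110, Fisher's exact test, adjusted p = 1.98e-43). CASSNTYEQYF (TCRBV19-01, TCRBJ02-07) went from 0 to 60, a 16-residue clone of TCRBV05-01 and TCRBJ01-04 from 0 to 34, and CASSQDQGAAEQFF (TCRBV05-01, TCRBJ02-01) from 0 to 26 templates. Mouse 5 had no clone at 1%. Its largest, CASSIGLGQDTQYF (TCRBV19-01, TCRBJ02-05), went from 0 to 25 templates, 0.883% (interval 0.599 to 1.30%) and at least 28.9-fold higher (Fisher's exact test, adjusted p = 1.47e-15), and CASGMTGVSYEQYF (TCRBV13-02, TCRBJ02-07) rose from 5 to 21 templates.

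The tumor of the same mouse, a tissue on which the calls did not draw, held most of these clones. Of the 120 clones higher in blood, 103 (85.8%) were found in the tumor of their own mouse, 26, 29, 23, 10 and 15 in mice 1 to 5. Of the 73 tested clones without a call, 22 (30.1%) were found there. As background, 2.66 to 7.36% of all day 7 blood rearrangements and 0.383 to 1.51% of day 0 rearrangements were found in the tumor of the same mouse. These sets were not matched for size on day 7. Of the higher clones, 93 had no day 0 template and were tested through their day 7 count alone. In mice 1 to 5, 3, 11, 7, 2 and 4 higher clones had day 0 templates, against 20, 46, 14, 3 and 14 of all tested clones. Most clones without a call had thus been found on day 0. Of all day 7 rearrangements, 97.2 to 98.6% held 1 to 3 templates. The fractions therefore compare neither clones of equal size nor clones that entered the test through the same day. In the tumors of the other 4 mice the clones were nearly absent, with 2, 0, 5, 0 and 1 detections in all for the clones of mice 1 to 5.

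These clones made up 53.0, 76.6, 55.3, 57.8 and 26.6% of the endogenous T-cell templates of the tumors. Mouse 2 had the highest value and mouse 5 the lowest, as for the share of the same clones in blood. All 17 higher clones named above ranked among the 10 largest of their own tumor. The blood leaders of mice 1 to 5 were each the largest tumor clone, with 25.4% of tumor templates for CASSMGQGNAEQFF, 36.3% for the leader of mouse 2, 16.8% for the TCRBV29-01 clone of mouse 3, 29.2% for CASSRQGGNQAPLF and 9.90% for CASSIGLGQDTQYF. Read from the tumor side, 10, 10, 10, 7 and 9 of the 10 largest tumor clones were found in day 7 blood, and 3, 5, 4, 2 and 1 of them in day 0 blood. Blood and tumor libraries of a mouse are separate samples, but the shares in both come from the same animal and were not tested across mice.

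**Figure D3:**
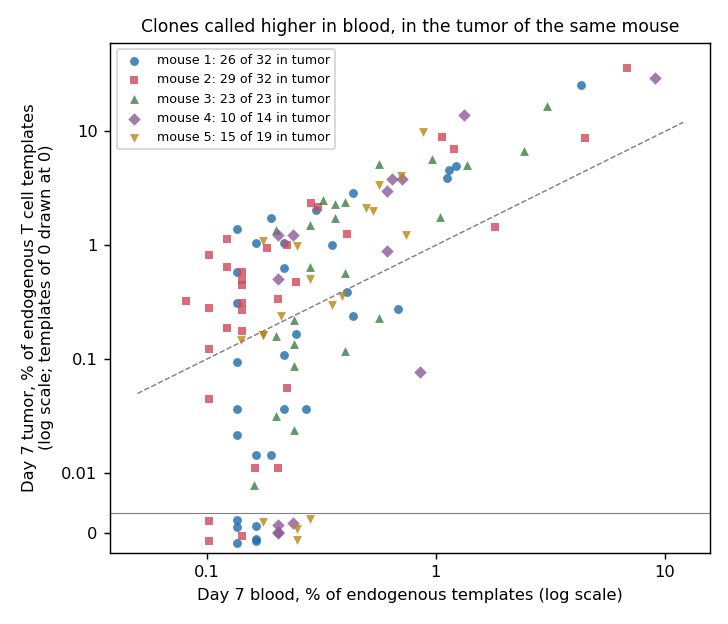
Each point is 1 of the 120 blood clones called higher, placed by its share of day 7 blood (horizontal axis, log scale) and of the day 7 tumor of the same mouse (vertical axis, log scale), with clones not found in the tumor at the tick marked 0 and the dashed line marking equal shares. Clones of larger blood share lie at larger tumor share, mostly above the line, and 17 clones lie at 0.

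Similar receptors rose in different mice, which was noticed after the values were seen. The leader of mouse 2 and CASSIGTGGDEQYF of mouse 4, both TCRBV19-01 with TCRBJ02-07, differ by 1 residue and by 3 bases of the reads shown above. The same ending on TCRBV17-01 marked the fourth largest clone of mouse 2 in blood, and a TCRBV17-01 clone ending in GTGGDTQYF rose from 0 to 7 templates in mouse 5. All productive rearrangements ending in GTGGDEQYF held 0.162% of templates in mouse 2 on day 0 and 8.10% on day 7, from 4 rearrangements, and 43.5% of its tumor. In mouse 4 they went from 0 to 1.36%, with 14.2% of the tumor. In mouse 1 they held 0.108% on day 0, 0.136% on day 7 and 0.00725% of the tumor, and in mouse 5 they held 0.0204% on day 0, 0 on day 7 and 0.937% of the tumor, while in mouse 3 none was found in blood or tumor. The ending was not tallied in the other groups, but it was not confined to the lower dose. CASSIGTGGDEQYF on TCRBV19-01 held 70 templates, 0.297%, of the tumor of mRBC-CTRL mouse 3. It also held 2 templates of the day 0 blood of mRBC-CTRL mouse 5. A CDR3 with the same ending on TCRBV26-01 held 2 templates of the day 7 blood of mRBC-CTRL mouse 3. In mouse 1, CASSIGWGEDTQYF rose as 2 rearrangements that differ by 1 base, with 6 and 5 templates on day 7 and 143 and 192 in the tumor. The other pairs with the same V segment and at most 1 residue of difference were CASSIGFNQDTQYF and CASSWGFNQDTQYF, both in mouse 3, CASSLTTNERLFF and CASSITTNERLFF in mice 1 and 3, and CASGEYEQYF and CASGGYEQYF in mice 1 and 5. In the tumor of mouse 2 the CDR3 of its leader was found as 16 rearrangements with 3270 templates, 3250 of them the leader's own. These rearrangements were named with several V segments, TCRBV14-01 and TCRBV17-01 among them. Whether 1-base pairs, or rearrangements with the same CDR3 or ending on different V segments, are separate clones or copying errors was not tested.

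Outside its own mouse the exact rearrangement of a named clone was found in at most 1 of 78 other libraries. As an amino acid sequence, the CDR3 of the mouse 2 leader also held 9 templates, 1.87%, of the day 7 blood of mouse 5 at 1e9 and 139 templates of that tumor. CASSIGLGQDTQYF was the most widely found, in 13 other libraries. Among them were the day 7 blood of mice 2 and 3 at 2.5e8, with 1 and 2 templates, and the tumors of both (0.190 and 0.682%). It was also in the mRBC-CTRL tumors of mice 4 and 5 (0.301 and 0.550%) and in their day 7 blood, with 1 template each. Blood of mice cured in another experiment of the series held it too. A test across mice needs CDR3s that several animals share, and 54 had at least 10 templates in all and were found in 4 mice or more. None of the 54 was called (edgeR quasi-likelihood test, 0 called and 0 at an unadjusted p under 0.05, 0 with DESeq2). Their estimated log2 changes ran from -4.30 to 4.00 at a common dispersion of 2.57. With such spread and so few templates the test could hardly call a change, so it does not show that they were unchanged.

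Losses could hardly be seen at this depth. For an unadjusted p under 0.05, a clone that disappeared needed at least 9, 16, 17, 5 and 15 templates on day 0 in mice 1 to 5, and only 3, 2, 0, 0 and 0 day 0 clones were that large. All 3 clones called lower were in mouse 1. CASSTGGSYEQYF (TCRBV19-01, TCRBJ02-07), the largest clone of that mouse on day 0, went from 25 templates, 0.337%, to 3, 0.0818% (ratio 0.243, 95% interval 0.0469 to 0.795, Fisher's exact test, adjusted p = 0.0207), and it had 37 templates in the tumor. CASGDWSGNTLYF (TCRBV13-02, TCRBJ01-03) and a 15-residue clone of TCRBV02-01 and TCRBJ01-03 went from 9 templates to 0 of 3668, which allows up to 0.0818% (Fisher's exact test, adjusted p = 0.0486 for each). None of the 3 stayed below the threshold when the deeper library was drawn down to the shallower one.

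The largest day 0 clones of the other mice took different courses. The largest of mouse 2, on TCRBV05-01 and TCRBJ02-01, went from 43 to 13 templates, 0.232 and 0.265% of the library, and in mouse 3 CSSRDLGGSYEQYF (TCRBV30-01, TCRBJ02-07), one of a tied pair, went from 8 to 6 templates. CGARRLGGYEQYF in mouse 4 (4 templates) and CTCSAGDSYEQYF in mouse 5 (12 templates) were not found on day 7, which at these depths allows shares of up to 0.102 and 0.106%.

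Few day 0 clones were found again at all. Between 7 and 42 rearrangements per mouse were seen on both days (27, 42, 25, 7 and 19 in mice 1 to 5), against 0 to 19, with a median of 8.5, between the day 0 and day 7 blood of different mice. Re-detection rose with clone size on day 0. It was 62 of 23936 clones (0.259%) at 1 template, 40 of 11135 (0.359%) at 2 to 3, 14 of 153 (9.15%) at 4 to 9 and 4 of 6 (66.7%) at 10 or more. The same counts against the day 7 blood of the other mice were 0.0961, 0.150, 0.817 and 0%. Clones found on both days without a call held 2.36 N bases on average, against 3.39 in clones found on day 0 alone, lower in 5 of 5 mice (difference -1.04 ± 0.51, exact sign-flip test, p = 0.0625). Rearrangements with few N bases are also made repeatedly by separate T cells, and how many of the shared ones are 1 clone was not tested.

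**Figure D4:**
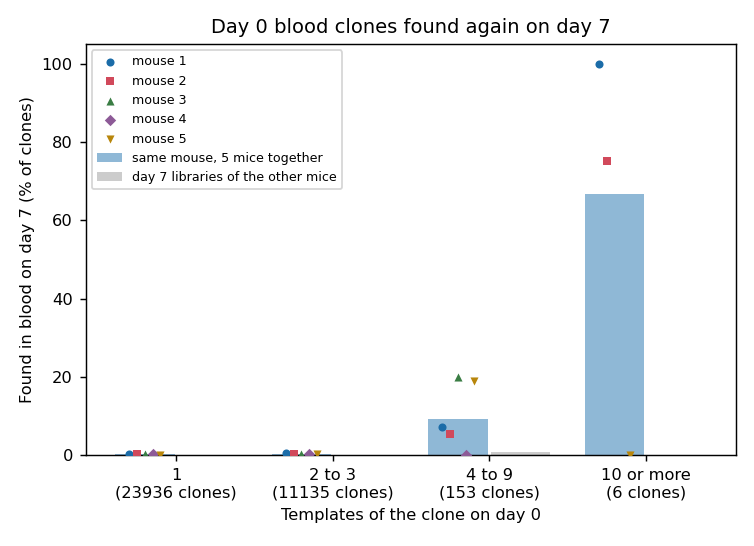
Percent of day 0 blood clones found again on day 7 (vertical axis) by the number of templates on day 0 (horizontal axis), with blue bars for all 5 mice together, grey bars for the day 7 libraries of the other mice and symbols for single mice, where mice 3 and 4 had no clone of 10 or more templates. Bars rise from 0.259% at 1 template to 66.7% of only 6 clones at 10 or more.

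V segment use moved far less than single clones. V segments set the first part of the CDR3 and the other loops of the chain. Of 23 V segments tested, 1 was higher (4.35%) and 0 were lower on day 7 (edgeR quasi-likelihood test with mouse as a block), with 9 at an unadjusted p under 0.05. TCRBV29-01 held 3.20, 3.19, 2.90, 3.43 and 2.92% of templates on day 0 and 3.68, 5.29, 6.20, 4.39 and 3.67% on day 7. The 5 day 7 values were above all day 0 values (log2 change 0.55 ± 0.15 SE, edgeR, adjusted p = 0.0464). Its call was lost without mouse 1 (adjusted p = 0.0560), mouse 2 (0.198), mouse 3 (0.146) or mouse 5 (0.171), and held without clones of 1% or more (log2 change 0.36, edgeR, adjusted p = 0.0196).

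The 5 most used V segments gave no call. TCRBV19-01, the segment of 4 of the 7 day 7 clones shown above, went from 7.83 to 10.02% (log2 change 0.34, edgeR, adjusted p = 0.104), and without clones of 1% or more its change was -0.036. TCRBV13-02 held 10.1 and 11.3%, TCRBV03-01 8.37 and 6.69%, TCRBV05-01 6.65 and 6.01%, and TCRBV02-01 6.05 and 5.22% on day 0 and day 7. TCRBV17-01 reached 10.8% in mouse 4 on day 7, where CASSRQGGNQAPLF alone held 9.05%, and 1.45 to 2.81% in the other mice. Counted as clones, the 120 called higher used TCRBV13-02 most often (19 clones, all 5 mice), then TCRBV05-01 (14, 4 mice) and TCRBV19-01 (12, all 5 mice).

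None of 12 J segments changed (edgeR quasi-likelihood test, 1 at an unadjusted p under 0.05, 0 called with DESeq2). TCRBJ02-07, the most used, held 26.4 ± 2.89% on day 0 and 27.8 ± 1.77% on day 7, TCRBJ02-01 9.76 and 10.6%, and TCRBJ02-05 9.41 and 8.81%. TCRBJ02-07 also supplied 43 of the 120 higher clones. The change from day 0 to day 7 was compared with that in mRBC-CTRL mice for 35 V and J segments, and none differed (edgeR interaction test, 0 called, 2 at an unadjusted p under 0.05). For TCRBV29-01 the difference in log2 change was 0.49 ± 0.19 SE (edgeR, adjusted p = 0.409).

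**Figure D5:**
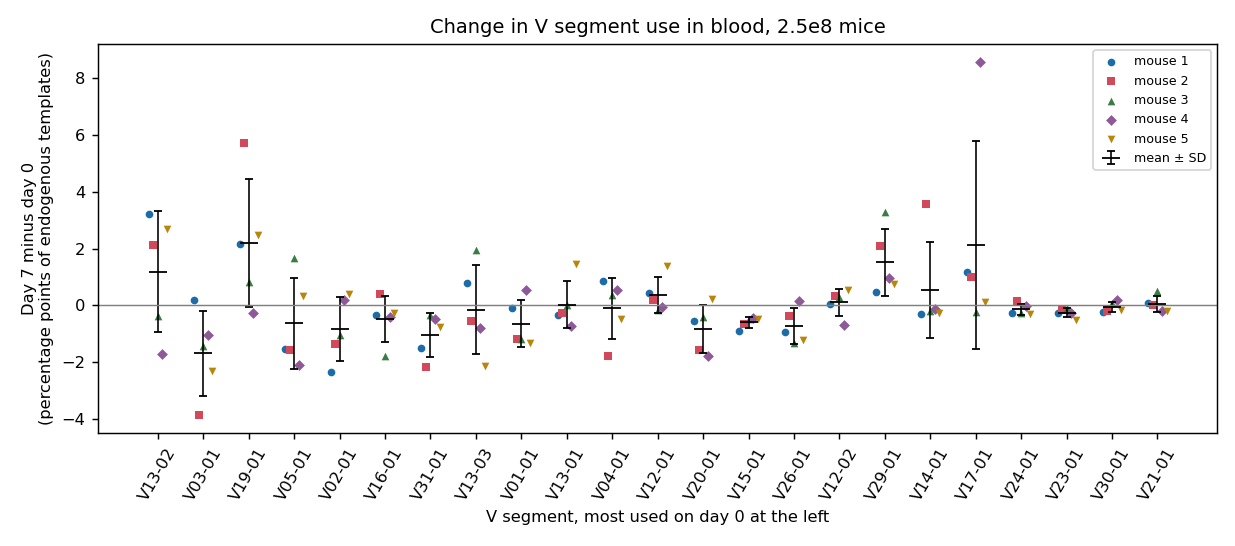
Change in the share of each of the 23 tested V segments from day 0 to day 7 (vertical axis, percentage points of endogenous templates), with segments ordered by day 0 use along the horizontal axis, symbols for single mice and black bars mean ± SD (n = 5). TCRBV29-01 is above 0 in all 5 mice, and the wide bar of TCRBV17-01 comes from mouse 4 at 8.59 points.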

How the data were processed

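TCRβ CDR3 regions were sequenced from genomic DNA of 50 to 60 µl of blood and of tumors. Per the labels and methods, the authors amplified the DNA by bias-controlled multiplex PCR (immunoSEQ) and deposited, for each rearrangement, a count of templates that was not normalized, after the provider's collapsing and filtering, together with the CDR3 length and N insertions in bases. The aligner and germline reference are not given in the sources used here, so no coordinates are given. V and J names are those in the files. The fall of OT-1 was removed by leaving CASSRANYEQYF out.

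Clonality and distinct rearrangements are expected values under drawing 2483 templates without replacement, and the 10 largest clones are the mean of 200 draws. Within-mouse changes were tested with exact sign-flip tests, groups with exact permutation tests, clones with Fisher's exact test (at least 5 templates, Benjamini-Hochberg within each mouse at 0.05), and V segments, J segments and shared CDR3s (means of at least 10 templates for segments) with edgeR 4.0.16 on library totals with mouse as a block. P-values of clones compare 2 libraries. Python 3.11.15, scipy 1.17.1, R 4.3.3 and DESeq2 1.42.0 were used. The Fisher calls and the V segment test were checked on simulated counts. Entropy and distinct rearrangements at equal depth were checked against direct draws, and the exact tests on small example values. The other steps had no such check. Intervals are 95% Wilson intervals for shares and 95% exact binomial intervals, scaled by library totals, for ratios. The floor is 3 templates per library, and intervals and floor cover counting error only. A cell may give more than 1 template.

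Clones named are, in each mouse, the largest called higher or lower, the 2 largest of day 7, and any with 1% of templates. Segments named are those called and the 5 V and 3 J most used. Similar clones, the clones called lower besides the largest, the largest day 0 clones, TCRBV17-01 and TCRBJ01-05 were named after their values were seen. The samples, lists and tests were chosen with earlier results of these data known. Alternatives covered depth, OT-1, minimums, thresholds, normalization and leaving out each mouse, and those that count 1 to 3 templates as 1, halve templates, block on shared mouse numbers between groups, or leave out mice in clone counts were added after the data were examined.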

Additional observations from a re-analysis of the deposited data

Results flagged for a closer look

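In mouse 4, the change of TCRBV17-01 (8.59 percentage points) and of TCRBJ01-05 (11.0 points) lay far from the other 4 mice. These were the 2 flags among 29 sets of values examined for such gaps. Both segments were added to the sets after their values were seen, so the count cannot be set against a chance rate. Both segments are those of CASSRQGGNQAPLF.

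Several differences from the other treatment groups passed an exact permutation test. Against mRBC-CTRL mice they were the change in clonality (0.0424), in distinct rearrangements (-624) and in the 10 largest clones (8.09 percentage points), the number of higher clones (15.5, and 8 at equal depth) and their day 7 share (10.8 points, and 9.97 at equal depth). Against 1e9 they were the change in distinct rearrangements (50.9), the share of higher clones (-9.47 points, and -10.5 at equal depth) and their number at equal depth (-4.25).

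Among the non-productive rearrangements, which were outside the main comparisons, 31 were higher on day 7 and 0 were lower. Per mouse there were 6.2 ± 3.11 at 2.5e8 (SD, n = 5) and 3.75 ± 0.5 in mRBC-CTRL mice (SD, n = 4), which did not pass the test (exact permutation test, p = 0.302). The largest of mouse 1 went from 5 to 130 templates and that of mouse 2 from 1 to 232, and each was the largest non-productive rearrangement of its tumor. Those of mice 3, 4 and 5 went from 0 to 11, 14 and 10 templates, and ranked 9 in the tumor of mouse 3 and 4 in that of mouse 5, while that of mouse 4 was not found in its tumor.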

How the results depend on the processing

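With OT-1 kept, the change in clonality was -0.0817 and that in the chance of sharing a rearrangement -4.46 points, both reversed, since OT-1 was the largest clone on day 0 and fell. Without the replicate block, comparing days as separate mice, clonality (0.0481), distinct rearrangements (-597), the chance of sharing (0.425) and the 10 largest clones (10.5) gave p = 0.00794 (exact permutation test). The fall in distinct rearrangements was smaller with OT-1 kept (-249). With 1 to 3 templates counted as 1 it was also smaller (-364), and the changes in clonality (0.0653), in the chance of sharing (0.724 points) and in the 10 largest clones (14.2 points) were larger. The clonality difference from mRBC-CTRL mice was 0.0353 to 0.04997 without each mouse in turn, with exact permutation p = 0.0536 without any mRBC-CTRL mouse (0.0411 to 0.0445), and 0.0448 (exact sign-flip test, p = 0.125) with a replicate block on mouse numbers, which mark different animals (r = -0.709 between their deviations over 4 pairs). Without mRBC-CTRL replicate 2, the difference in higher clones was 14.7 (exact permutation test, p = 0.0536), and without each mouse it ranged from 13.5 to 18.

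Clones higher numbered 52 with at least 10 templates (51 of them among the 120), 68 with no minimum and 50 with templates halved, and 88 to 106 without each mouse. With the deeper library of each mouse drawn down to the shallower one, 85 of 129 tested were higher. There were 108 at an adjusted p of 0.01 and 128 with all productive templates in the denominator. Clones lower numbered 1 with at least 10 templates, 1 with the CDR3 as clone, and 0 with no minimum, at an adjusted p of 0.01, with the deeper library drawn down, with all productive templates in the denominator or with templates halved. Without mouse 1 they numbered 0, and 3 without any other mouse. Clones found on both days numbered 78 without mouse 2 and at most 113 without another mouse.

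V segments changed numbered 2 without a filter on low counts (TCRBV29-01 and TCRBV17-01), 4 by distinct rearrangements (TCRBV13-02 and TCRBV29-01 higher, TCRBV03-01 and TCRBV26-01 lower) and 0 or 1 without each mouse, where the 1 without mouse 3 was TCRBV17-01. Without mouse 5, 1 J segment changed, TCRBJ01-06 (log2 change -0.55, edgeR, adjusted p = 0.0150). Among uncalled segments the log2 change turned to -0.046 by distinct rearrangements and -0.036 without clones of 1% for TCRBV19-01, to -0.033 by distinct rearrangements for TCRBJ02-01, and to 0.027 with DESeq2, 0.027 by distinct rearrangements and 0.020 without clones of 1% for TCRBJ02-05. DESeq2's size factors moved the median V and J changes by 0.11 and 0.13 log2, and segments above 0 went from 9 to 11 of 23 V and from 3 to 8 of 12 J. The named clones kept direction and call in 139 of 144 settings, and the other 5, all for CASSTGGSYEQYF, kept direction without the call. The cause of these changes was not tested. Of the day 0 clones, 99.2 to 99.95% had 1 to 3 templates, too few for a loss to be called.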

Other observations

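The non-productive rearrangements gave the same direction at 1128 templates per library, with clonality changed by 0.0291 ± 0.0277, distinct rearrangements by -154 ± 73.4 and the 10 largest by 6.71 ± 5.77 percentage points (SD, n = 5). The 10 largest clones of the tumors held 9.24, 16.8, 10.9, 12.7 and 4.13% of day 7 blood in mice 1 to 5, against 0.0809, 0.157, 0.153, 0.112 and 0.0509% of day 0 blood. In all, 43 of the 120 higher clones ranked among the 10 largest of their tumor and 61 among the 20 largest.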
